A study of Homo sapiens with 12 samples.

Results

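The MYC, MAX and MXD network is a family of basic helix-loop-helix leucine zipper transcription factors, and 10 of its genes were examined: MYC, MYCN, MYCL, MAX, MXD1, MXD3, MXD4, MXI1, MNT and MLX. The genes were taken by name. Of the 20052 protein-coding genes in the RefSeq table of GRCh38.p14, 16883 could be given a deposited window at their 5′ end, and 9 of the 10 network genes were among them. A window was assigned by strand and position, as the one whose centre lay nearest the RefSeq 5′ end and within 1 kb of it. No window met this rule for MXD1, whose nearest window on the same strand lay 17.42 kb upstream, so MXD1 was described by its peaks alone. All peaks from 5 kb upstream to 5 kb downstream of each gene were collected as well.

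The libraries came from HEK293 cells, a widely used line derived from human embryonic kidney, grown without any treatment that the labels name. G-quadruplexes, four-stranded structures that guanine-rich DNA can form, were captured from fixed and sheared chromatin with the antibody fragment BG4. The 12 samples form 3 groups named BioRep1, BioRep2 and BioRep3 for the biological replicate, and in each group 3 samples are technical ChIP libraries and 1 is an input, which was not used here. There was a single condition, so the comparisons were among the genes, between the genes and other protein-coding genes, and between the biological replicates. The libraries hold DNA only, so the cell line could not be checked against expressed markers. A signal summed over many cells does not tell apart a structure present in few cells from one present weakly in many.

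MYC and its relatives MYCN and MYCL pair with MAX to bind the E-box sequence CACGTG and raise transcription. The MXD proteins and MNT pair with MAX at the same sequence and recruit SIN3 and histone deacetylase corepressors, so that the network is read as a balance between activating and repressing pairs around MAX. MLX is a parallel partner that pairs with the glucose-responsive factors MLXIP and MLXIPL, and with some MXD proteins and MNT. The MYC promoter is a textbook site of G-quadruplex formation.

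RefSeq promoters of the network genes, each running from 250 bases before a start to 50 after it, are shown because peaks lie on some of them. The promoter table matched 9 of the 10 genes with 12 promoters, and MYC had no entry. The 5 printed here were chosen for their contrast: a promoter covered by peaks along most of its length (MXD4), one covered in full but without the motif searched for (MXD1), one with a short peak (MYCL), an internal start (MXI1) and one with no peak (MYCN). They lie at chr4:2262060-2262359 on the minus strand for MXD4, chr2:69914859-69915158 on the plus strand for MXD1, chr1:39901868-39902167 on the minus strand for MYCL, chr10:110225746-110226045 on the plus strand for MXI1 and chr2:15940300-15940599 on the plus strand for MYCN, all in GRCh38.p14. Capitals mark runs of 3 or more G or C, where a run of C is a run of G on the other strand.
MXD4: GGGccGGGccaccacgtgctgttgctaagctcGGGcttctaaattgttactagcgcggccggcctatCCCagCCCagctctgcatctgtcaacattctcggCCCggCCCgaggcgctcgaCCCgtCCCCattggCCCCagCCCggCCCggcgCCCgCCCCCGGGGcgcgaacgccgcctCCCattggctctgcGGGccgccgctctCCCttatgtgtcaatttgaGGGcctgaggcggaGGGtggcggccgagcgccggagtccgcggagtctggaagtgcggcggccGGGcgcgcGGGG
MXD1: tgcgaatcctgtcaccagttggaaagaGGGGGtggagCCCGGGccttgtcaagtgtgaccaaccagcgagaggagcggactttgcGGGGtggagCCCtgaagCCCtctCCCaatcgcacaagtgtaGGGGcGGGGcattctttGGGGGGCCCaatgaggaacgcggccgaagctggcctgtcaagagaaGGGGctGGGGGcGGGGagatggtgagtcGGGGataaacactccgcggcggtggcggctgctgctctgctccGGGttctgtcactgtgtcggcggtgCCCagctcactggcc
MYCL: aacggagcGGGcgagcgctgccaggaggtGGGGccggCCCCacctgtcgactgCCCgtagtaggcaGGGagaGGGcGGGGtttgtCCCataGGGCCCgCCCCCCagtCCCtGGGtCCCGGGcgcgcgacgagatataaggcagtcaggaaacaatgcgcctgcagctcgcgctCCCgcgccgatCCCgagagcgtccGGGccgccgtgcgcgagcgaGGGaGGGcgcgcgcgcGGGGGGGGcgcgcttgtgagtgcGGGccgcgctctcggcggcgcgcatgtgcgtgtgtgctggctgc
MXI1: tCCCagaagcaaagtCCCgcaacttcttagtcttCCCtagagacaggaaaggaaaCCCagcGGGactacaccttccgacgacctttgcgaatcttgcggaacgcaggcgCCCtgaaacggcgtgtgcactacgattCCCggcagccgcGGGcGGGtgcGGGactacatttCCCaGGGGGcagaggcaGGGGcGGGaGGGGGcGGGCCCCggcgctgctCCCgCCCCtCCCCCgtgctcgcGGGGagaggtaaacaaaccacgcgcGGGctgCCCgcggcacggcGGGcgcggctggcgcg
MYCN: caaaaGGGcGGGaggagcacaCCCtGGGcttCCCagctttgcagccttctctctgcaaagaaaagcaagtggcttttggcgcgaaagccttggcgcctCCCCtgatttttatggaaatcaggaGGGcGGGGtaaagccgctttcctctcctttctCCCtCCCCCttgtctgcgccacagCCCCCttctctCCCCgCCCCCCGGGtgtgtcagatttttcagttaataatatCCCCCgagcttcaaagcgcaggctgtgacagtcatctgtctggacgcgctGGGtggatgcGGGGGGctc

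A G-quadruplex motif was sought as 4 runs of GGG separated by loops of 1 to 7 bases (GGG, then N, then GGG and so on), on both strands. A match describes letters and is not a folded structure, and a promoter without one only lacks these letters in its 300 bases. The motif stood in promoters of 4 of the 9 matched genes (44.4%, exact 95% interval 13.7 to 78.8%), against 36.3% of 15842 protein-coding genes with a promoter. A single stretch with a match is given for each of MXD4, MYCL, MAX and MXI1, to show how dense the runs are. The MAX stretch is from the promoter of a start 412 bases inside the gene. The MXI1 stretch is from that of a start 18391 bases inside the gene. MAX and MXI1 had further matches that are not printed.
MXD4 motif: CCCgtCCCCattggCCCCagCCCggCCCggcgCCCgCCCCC
MYCL motif: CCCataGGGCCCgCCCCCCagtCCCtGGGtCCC
MAX motif: CCCtCCCCttcaCCCCttCCCCtCCCC
MXI1 motif: GGGGcGGGaGGGGGcGGG

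The MXD4 stretch, bases 121 to 161 of its promoter, lay wholly inside peaks of all 3 biological replicates. The MYCL stretch, bases 86 to 118, and the MAX stretch, bases 131 to 157, lay in no peak. The MXI1 stretch, bases 188 to 205, lay inside a peak but not inside peaks of all 3 replicates at once. The matches not printed lay in no peak. They were 31 and 49 bases long at the MAX start 1011 bases in, and 35 bases long at the MXI1 start 2626 bases in. The promoters of MYCN, MXD1, MXD3, MNT and MLX had no match. MXD1 and MNT did match when loops of up to 12 bases were allowed, which raised the count to 6 of 9 genes, and under that rule 51.5% of the 15842 protein-coding genes matched. Runs alone did not separate promoters with and without peaks, since MYCN, without a peak, and MXD1, with peaks in all 3 replicates, each had 17 runs, and the median over all protein-coding promoters was 14. Genome-wide, 29.5% (28.4 to 30.6%) of the promoters with the motif were touched by peaks of all 3 replicates, against 19.7% (19.1 to 20.4%) of those without it.

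The E-box CACGTG, the site that the network's own proteins bind, was searched for in the same promoters; it is a palindrome, so both strands read the same, and it holds no run of GGG. It stood at base 13 of the MXD4 promoter, base 58 of the MNT promoter and base 201 of the MLX promoter. That is 3 of 9 genes (33.3%, 7.49 to 70.1%), against 10.9% of protein-coding genes. In the MXD4 promoter the E-box lay within the first 246 bases, all covered by peaks of all 3 replicates. In the MNT promoter the bases covered in all 3 replicates ran from 120 to 234 and did not include it. No base of the MLX promoter was covered in all 3 replicates.

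**Figure D1:**
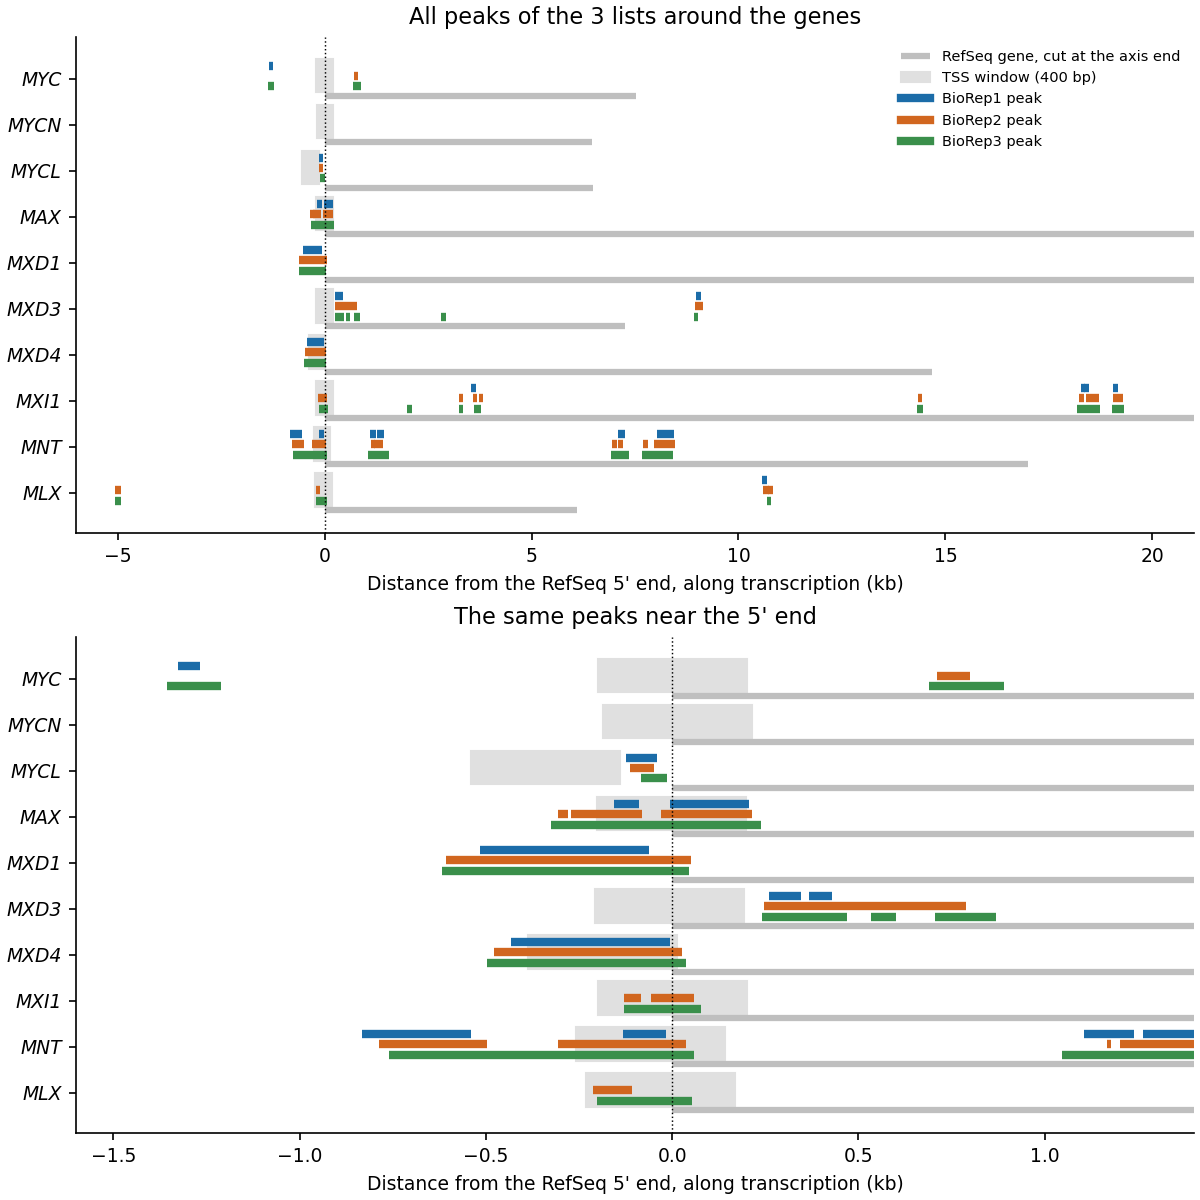
Positions of the deposited peaks of BioRep1 (blue), BioRep2 (orange) and BioRep3 (green) at the 10 genes, in kb from the RefSeq 5′ end along the direction of transcription (upper panel, whole range; lower panel, near the 5′ end), with each 400 bp window as a pale box and the gene as a grey bar. MYCN has no peak, MYCL, MAX, MXD1 and MXD4 have a single group of peaks at the 5′ end, and MXI1 and MNT have several within the gene; peaks narrower than the line are widened to be visible, and the BioRep1 peak at the far upstream MLX site is not drawn because it ends beyond the 5 kb limit.

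The deposited peak lists, 1 per biological replicate, held 7931, 11665 and 13049 peaks for BioRep1, BioRep2 and BioRep3. Overlapping peaks of the lists were merged into sites. The network genes with their flanks held 24 sites, of which 15 were present in all 3 lists (62.5%), 6 in 2 lists and 3 in 1 list. Over the 14882 sites of the genome these shares were 40.9%, 21.9% and 37.3%. That set was not restricted to genes and their flanks, so it is unlike the network's sites in position. Sites in all 3 lists had a median length of 517 bp at the network genes and 327 bp genome-wide. Of the 6 sites in 2 lists, 5 were those of BioRep2 and BioRep3, the pair with the longer lists, and none of the sites in 1 list was from BioRep1. No genome-wide share is given beside these counts by list, so they describe the listed sites and no trait of the network. By position, 9 of the 24 sites lay within 1 kb of the RefSeq 5′ end, 10 farther inside the gene, 2 upstream and 3 downstream. The sites outside the genes at MXD3 and MLX lay at the 5′ ends of neighbouring genes. No genome-wide split by position is given.

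Counting within 1 kb of the 5′ ends was chosen after seeing the data, and the planned count, inside the 400 bp windows, is given below. At the 5′ ends, peaks of all 3 lists lay within 1 kb at 6 of the 10 genes (60%, exact 95% interval 26.2 to 87.8%), namely MYCL, MAX, MXD1, MXD3, MXD4 and MNT. The same was true of 29.3% of the 15842 protein-coding genes whose strand the promoter table gives, a set that does not hold MYC, whose strand was taken from its window. A peak of any list lay within 1 kb at 9 of 10 genes, against 47.8% of protein-coding genes, and the gene without one was MYCN. From 5 kb upstream to 5 kb downstream, 9 of 10 genes had a peak of any list, against 57.8%, and 8 of 10 had a site in all 3 lists, against 35.9%. MLX counted among the latter only through sites at the 5′ ends of its neighbours COASY and PSMC3IP. Inside the 400 bp windows the counts were lower: 3 of 9 genes had peaks of all 3 lists (33.3%, 7.49 to 70.1%), against 23.9% of protein-coding windows. Peaks of at least 2 lists touched 5 of 9 windows, against 34.2%, and a peak of any list touched the same 5, against 41.4%. These counts are small, and the intervals cover counting error only.

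Signal in a window was measured as CPM, its read count scaled to a fixed total of reads over all 58381 windows of the same library. The windows held from 372030 to 846114 reads in a library. All windows are 400 bp long, so levels can be set beside each other per length. The 3 technical libraries were averaged first, and a level is the mean ± SD of the 3 biological replicates (n = 3). The technical libraries share chromatin, and the labels do not say whether biological replicates were grown as separate cultures. A site's surroundings were taken as the mean over windows within 2 Mb that had no peak and were not assigned to a protein-coding gene.

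The MYC family, the activating side of the network, had the lowest window signal of the 9 genes. No peak touched these windows, so at MYC and MYCL the level describes DNA beside the sites. MYC, the proto-oncogene that gives the network its name, had 18.8, 21.5 and 21.7 CPM in the BioRep1 libraries, 17.3, 31.9 and 18.8 CPM in BioRep2 and 28.1, 12.9 and 25.3 CPM in BioRep3. The libraries of the 3 replicates overlapped, and the lowest and the highest value of the 9 came from BioRep3 and BioRep2. The mean was 21.8 ± 1.03 CPM (n = 3) in the window at chr8:127735235-127735634, centred 1 base inside the RefSeq 5′ end. This rested on 8 to 27 reads per library. It was 2.67 ± 0.140 times the local surroundings and was above them in 9 of 9 libraries, and it exceeded 81.4% of the 9896 protein-coding windows without a peak, whose median was 11.1 CPM. Among all protein-coding windows it exceeded 47.9%.

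No list had a peak in the MYC window, and the 2 sites at the gene were short and each present in 2 lists. An upstream site of 144 bp, centred at -1284 bp from the 5′ end (negative positions are upstream), was in the lists of BioRep1 and BioRep3. It touched the window of CASC11, a non-coding RNA gene on the opposite strand, which had 26.0 ± 4.30 CPM. A site of 202 bp inside the gene, centred 790 bp after the 5′ end, was in the lists of BioRep2 and BioRep3 and began 489 bp past the edge of the window. MYC is transcribed from several promoters, and where its known G-quadruplex element lies relative to the window was not determined here.

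MYCN, the family member best known from neuroblastoma, had 12.1 ± 0.473 CPM in its window at chr2:15940365-15940764. Its libraries ran from a lowest value of 6.26 CPM through a median of 10.8 CPM to a highest of 19.1 CPM, on 4 to 11 reads each, and all 3 replicates spanned nearly the same range. This was 1.71 ± 0.161 times the surroundings, above them in 8 of 9 libraries, but only 1.08 times the median of peak-free protein-coding windows, 55.3% of which were lower. Of all protein-coding windows, 32.4% were lower. MYCN was the one gene of the 10 with no peak in any list from 5 kb upstream to 5 kb downstream. MYCNOS, transcribed from the opposite strand of the locus, had 12.5 ± 3.63 CPM and no peak in its window, and RN7SL104P downstream had 6.47 ± 0.596 CPM and none.

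MYCL, the family member first found amplified in lung cancer, had 22.4 ± 2.43 CPM in a window at chr1:39902057-39902456 whose centre lay at -340 bp from the RefSeq 5′ end. The library values ran from 15.6 CPM through a median of 21.7 CPM to 34.4 CPM, and the highest library belonged to BioRep1. No peak touched this window, yet all 3 lists had a peak in a site of 111 bp that began 15 bp from its edge and was centred at -69 bp (chr1:39901931-39902041). The MYCL level therefore describes DNA beside the peak and not the peak itself. In the promoter printed above, the bases covered in all 3 lists were 167 to 202, a stretch of 36 bases with 3 runs.

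MAX, the shared partner of the MYC, MXD and MNT proteins, had 68.9, 64.5 and 83.4 CPM in BioRep1, 101, 95.7 and 107 CPM in BioRep2, and 90.4, 67.5 and 80.9 CPM in BioRep3. The BioRep2 libraries were the 3 highest, without overlap with the others, while BioRep1 and BioRep3 overlapped. The mean of 84.3 ± 14.9 CPM in the window at chr14:65102496-65102895 exceeded 95.3% of protein-coding windows and was 10.3 ± 2.22 times the local surroundings. A single site of 565 bp, merged from 6 peaks, covered the 5′ end, with its centre at -43 bp, and all 3 lists took part. No further site lay in the 96.595 kb of the gene or its flanks, and the window of MIR4706 inside the gene had 7.08 ± 0.894 CPM and no peak. The table's promoters of MAX lie inside the gene, and peaks reached only the first 78 bases of the one starting 412 bases in and none of the one starting 1011 bases in.

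MXD4, a repressor that pairs with MAX in differentiating cells, had the highest window signal of the network. It had 106, 129 and 116 CPM in BioRep1, 146, 132 and 135 CPM in BioRep2, and 148, 155 and 149.9 CPM in BioRep3. Every BioRep3 library was above every BioRep1 and BioRep2 library, and every BioRep2 library was above every BioRep1 library. The mean of 135 ± 17.1 CPM exceeded 99.7% of protein-coding windows and was 16.1 ± 2.52 times the local surroundings, on 48 to 112 reads per library. The window at chr4:2262095-2262494 was centred at -186 bp, and a site of 536 bp (chr4:2262071-2262606) spanned it and reached past the RefSeq start. Peaks covered 428, 507 and 536 bases of this site in BioRep1, BioRep2 and BioRep3. Of the 22 runs in the promoter printed first above, 20 lay in the 246 bases covered in all 3 lists. MIR4800, within the same gene, had 9.36 ± 1.42 CPM and no peak.

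MXD1, the founding MXD repressor, had no assigned window, but a long site in all 3 lists lay at its 5′ end. It ran over 670 bp (chr2:69914490-69915159), centred at -284 bp. Each list had 1 peak there, covering 455 bases in BioRep1, 657 in BioRep2 and 665 in BioRep3. The printed promoter lay inside it from the first base to the last, with bases 1 to 188 and 11 of its 17 runs covered in all 3 lists. No read density can be given for this site.

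MXD3, a repressor expressed in proliferating cells, had 35.0 ± 2.37 CPM in its window at chr5:177312558-177312957. Its libraries ran from 26.9 CPM through a median of 31.3 CPM to 43.5 CPM, with the lowest and the highest value both in BioRep1. The window exceeded 98.0% of protein-coding windows without a peak and 62.6% of all protein-coding windows, although no peak touched it. A site of 627 bp in all 3 lists began 47 bp from its edge, inside the gene, with its centre 555 bp after the 5′ end (chr5:177311884-177312510). Another site, 2872 bp into the gene, was in the BioRep3 list alone. The third, downstream of the gene and in all 3 lists, lay at the 5′ ends of PRELID1 and RAB24, 2 genes on opposite strands whose windows had 52.9 ± 5.46 and 52.7 ± 5.83 CPM and largely cover the same bases.

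MXI1, also known as MXD2, had the most sites of the 10 genes, with 7, a number reached by 0.208% of protein-coding genes. The share makes no allowance for the span searched, which grows with gene length. MXI1 is 79.761 kb long. Its window at the outermost 5′ end (chr10:110207406-110207805) had 39.1, 32.3 and 38.1 CPM in BioRep1, 50.3, 53.2 and 43.9 CPM in BioRep2, and 70.1, 48.8 and 45.5 CPM in BioRep3. All 3 BioRep1 libraries were below all libraries of BioRep2 and BioRep3, which overlapped each other. The mean was 46.8 ± 9.38 CPM, or 4.70 ± 1.33 times the surroundings, and peaks of BioRep2 and BioRep3 but not of BioRep1 touched the window. The site there was 207 bp long, centred at -27 bp.

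Of the MXI1 sites 3 were in all 3 lists, and all of them lay inside the gene, as did 3 of the other 4. The longest, 567 bp with its centre 18462 bp into the gene, covered another RefSeq start of MXI1, the one whose promoter is printed above. In that promoter 262 of 300 bases lay in a peak of some list and 56 in peaks of all 3. A site of 280 bp followed 19164 bp into the gene, and one of 259 bp lay 3689 bp into it. The remaining internal sites were in the lists of BioRep2 and BioRep3 (80 bp and 143 bp) or of BioRep3 alone (71 bp). The promoter of a further MXI1 start, 2626 bases into the gene, held the motif and 26 runs and was touched by no peak.

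MNT, the MAX-binding repressor present in most cells, had 62.6, 48.4 and 41.7 CPM in BioRep1, 57.2, 54.4 and 58.0 CPM in BioRep2, and 65.5, 66.0 and 52.2 CPM in BioRep3. The replicates overlapped, and the mean of 56.2 ± 5.18 CPM in the window at chr17:2400919-2401318 exceeded 82.8% of protein-coding windows. The gene had 4 sites, all of them in all 3 lists. As many or more sites in all 3 lists were found at 0.145% of protein-coding genes, with no allowance for gene length (16.988 kb for MNT). The site at the 5′ end was 892 bp long and centred at -388 bp (chr17:2401002-2401893). The others lay inside the gene, 517 bp long at 1303 bp, 451 bp long at 7137 bp and 797 bp long at 8063 bp after the 5′ end. In the promoter, 8 of 23 runs lay in the bases covered in all 3 lists.

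MLX, the partner of the MLXIP and MLXIPL proteins, had 45.4, 59.1 and 39.9 CPM in BioRep1, 41.6, 56.7 and 58.0 CPM in BioRep2, and 60.8, 56.0 and 65.7 CPM in BioRep3, with overlap between all replicates. Its window at chr17:42566869-42567268 averaged 53.7 ± 6.49 CPM, or 5.51 ± 0.763 times the surroundings. Peaks of BioRep2 and BioRep3 but not of BioRep1 touched it, in a site of 267 bp centred at -81 bp. This list pattern, shared with MXI1, was found in 2 of 9 network windows and in 9.17% of protein-coding windows. The other sites of MLX lay at the 5′ ends of its neighbours: one upstream at COASY in all 3 lists, and 2 downstream at PSMC3IP, one in all 3 lists and a 17 bp one in BioRep2 alone. The PSMC3IP window had 54.0 ± 6.76 CPM, close to the level of MLX itself.

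**Figure D2:**
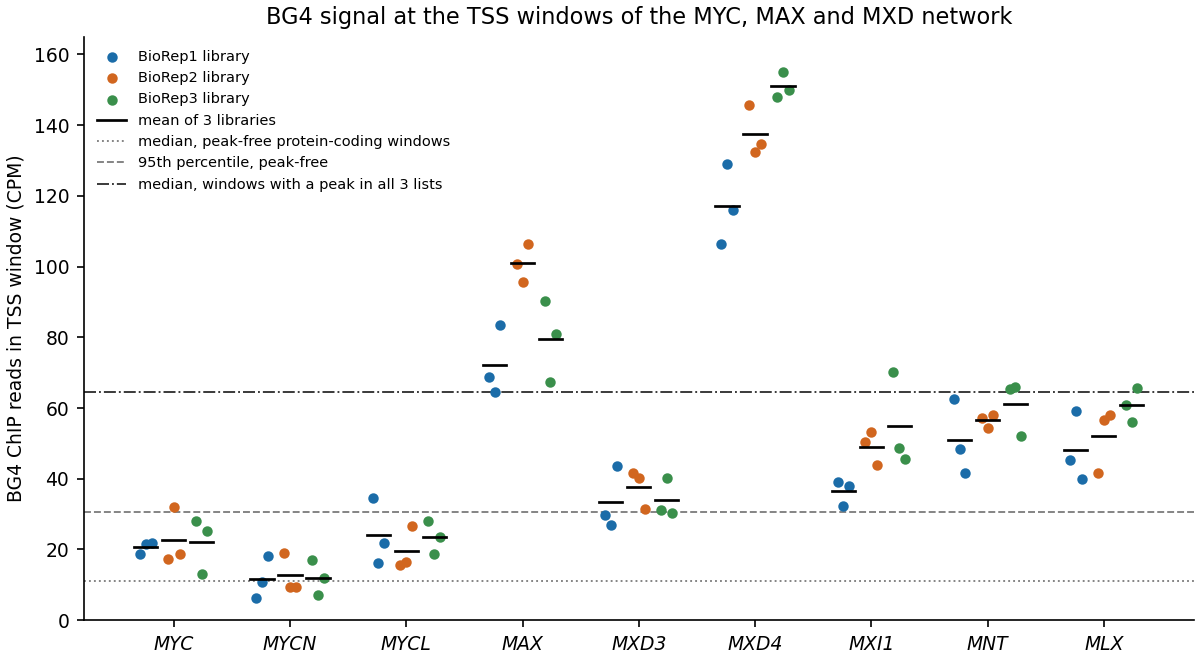
BG4 ChIP reads in the 400 bp window at each gene's 5′ end, in CPM, with 1 point per library (3 technical libraries in each of BioRep1, BioRep2 and BioRep3) and a bar at the mean of each biological replicate. MXD4 and MAX lie above the median of windows with peaks in all 3 lists (64.6 CPM, dash-dotted), MYC, MYCN and MYCL below the 95th percentile of peak-free protein-coding windows (30.6 CPM, dashed) in their means, and the dotted line is the median of the peak-free windows (11.1 CPM).

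By mean signal the order was MXD4, MAX, MNT, MLX, MXI1, MXD3, MYCL, MYC and MYCN. The ranges of the 3 biological replicates did not overlap between MXD4 and MAX, between MAX and MNT, between MXD3 and MYCL, or between MYC and MYCN. They overlapped between MNT and MLX, where MNT was the higher in 5 of 9 libraries, and between MLX and MXI1 (MLX higher in 7 of 9). They also overlapped between MXI1 and MXD3 (MXI1 higher in 8 of 9) and between MYCL and MYC (MYCL higher in 3 of 9). Paired within biological replicates, MNT was above MLX, MLX above MXI1 and MXI1 above MXD3 in 3 of 3. MYCL was above MYC in 2 of 3. All 3 MYC family windows were below all 6 windows of MAX, MLX, MNT and the MXD genes in 8 of 9 libraries. No peak touched the windows of MYC, MYCN, MYCL or MXD3. A site in all 3 lists lay 15 bp from the MYCL window and 47 bp from the MXD3 window. The MYC window lay 489 bp from a site in 2 lists. The contrast therefore describes the windows and not the sites near them. No test was made of these differences between genes. With 3 values against 3, an unpaired exact two-sided permutation test cannot go below 0.10. Such a test would also ignore that the genes were measured in the same replicates.

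The median of the 9 windows was 46.8 CPM, against 23.6 CPM over all 16883 protein-coding windows. Of the 9 windows, 6 were above 30.6 CPM, the 95th percentile of peak-free windows, against 42.2% of protein-coding windows. Windows with a peak in 1, 2 and 3 lists had medians of 34.9, 43.5 and 64.6 CPM. Against these, MNT at 56.2 CPM was below the median of the windows with peaks in all 3 lists, MXI1 and MLX were above that of the windows in 2 lists, and MXD3 at 35.0 CPM was near that of the windows in 1 list without having a peak. Peaks and window counts come from the same reads, so the relation between them describes the lists.

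**Figure D3:**
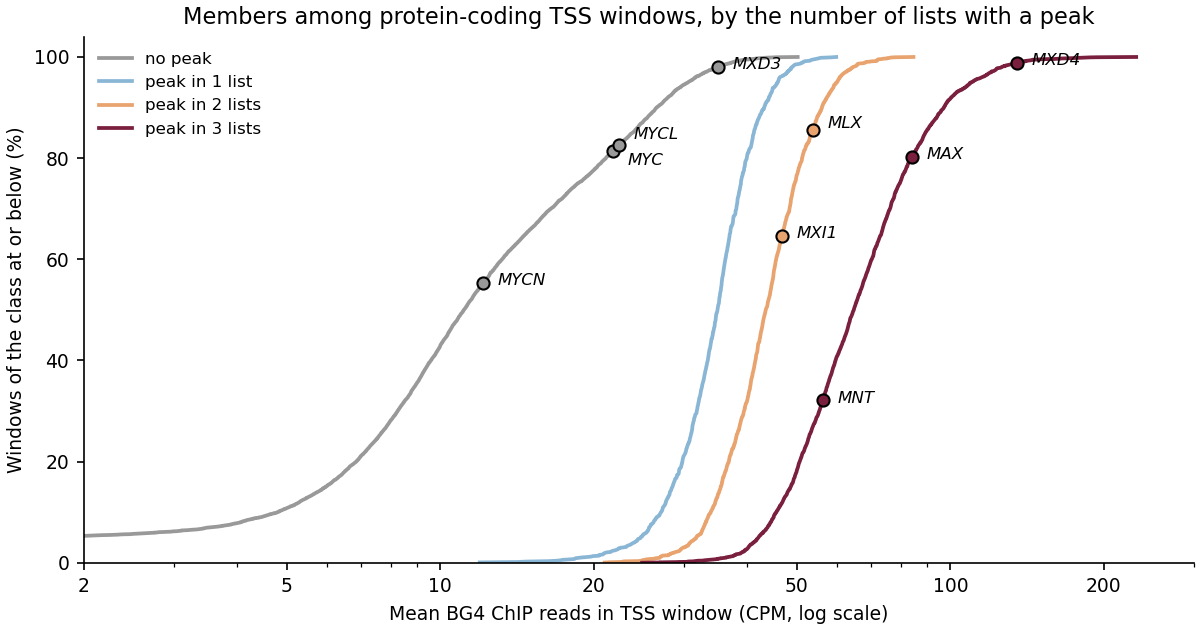
Cumulative share of protein-coding windows (per cent, vertical) at or below a mean BG4 signal (CPM, log scale, horizontal), drawn separately for windows with no peak and with a peak in 1, 2 or 3 lists, with the 9 network genes marked on the curve of their own class. MXD4 lies near the top of the windows with peaks in all 3 lists and MNT in their lower part, while MXD3 lies near the top of the windows with no peak and MYCN near their middle.

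Differences between biological replicates were tested for every window with edgeR's quasi-likelihood test and Benjamini-Hochberg adjustment over 17499 windows. The test asks whether a window's share of reads differed beyond the spread between technical libraries, and its p-values measure only that spread. No window passed an adjusted p of 0.05 in any of the 3 contrasts (0% called in each), nor did any with DESeq2. In simulated data edgeR called 22% of windows raised 1.5-fold, so a difference of that size could go uncalled. At an unadjusted p under 0.05, edgeR had 1323 windows for BioRep1 over BioRep2, 1510 for BioRep1 over BioRep3 and 976 for BioRep2 over BioRep3. Over the 9 network windows and 3 contrasts the 27 log2 fold changes ran from -0.51 to 0.42, with adjusted p from 0.440 to 0.998.

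Of the 27 values, 4 had an unadjusted p under 0.05, and they belonged to MAX, MXD4 and MXI1. MAX was lower in BioRep1 than in BioRep2, at a log2 fold change of -0.43 (SE 0.15, edgeR adjusted p = 0.496), and higher in BioRep2 than in BioRep3, at 0.37 (SE 0.14, edgeR adjusted p = 0.816). MXD4 was lower in BioRep1 than in BioRep3, at -0.34 (SE 0.12, edgeR adjusted p = 0.440), and MXI1 likewise, at -0.51 (SE 0.21, edgeR adjusted p = 0.511). The missing BioRep1 peaks at MXI1 and MLX stood beside fitted differences that did not pass, with MLX at -0.32 (SE 0.20, edgeR adjusted p = 0.719) for BioRep1 over BioRep3. In BioRep1 over BioRep2, 8 of the 9 values were below 0, against 49.6% of all windows tested. In BioRep1 over BioRep3 it was 6 of 9, against 49.8%, and both comparisons share the BioRep1 libraries. BioRep1 also had the shortest peak list, and the part of this in the list patterns was not tested.

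**Figure D4:**
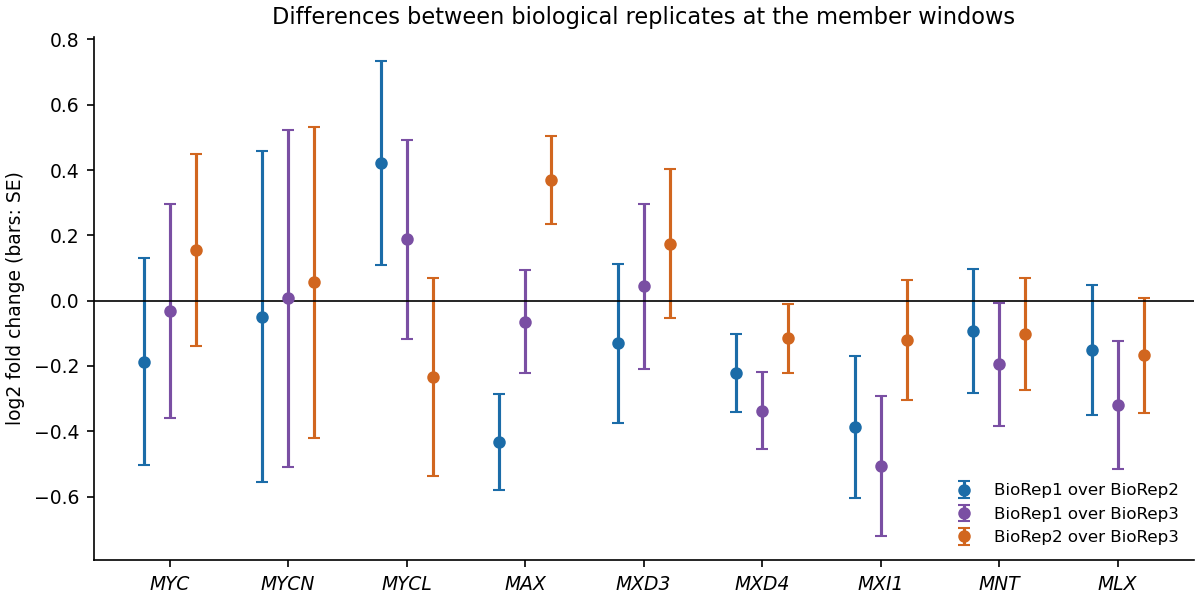
Log2 fold changes of the 9 windows between biological replicates from the edgeR fit, with bars for the standard error, for BioRep1 over BioRep2 (blue), BioRep1 over BioRep3 (purple) and BioRep2 over BioRep3 (orange). MAX, MXD4 and MXI1 hold the values farthest from 0 relative to their bars, MYCN has the widest bars, and none of the 27 values passed the adjusted threshold.

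Genes that work with the network were counted in the same way, by the share with peaks of all 3 lists in their window, beside the 23.9% of protein-coding windows. Among genes that control the stability of the MYC protein, 8 of 11 windows had such peaks (72.7%, exact 95% interval 39.0 to 94.0%), with a median of 68.2 CPM. PPP2R5A, a regulatory subunit of the phosphatase PP2A, had 81.8 ± 5.35 CPM and peaks of all 3 lists. HUWE1, a ubiquitin ligase, had 33.5 ± 4.53 CPM with a peak in BioRep2 alone, and USP36, a nucleolar deubiquitinase, had 30.6 ± 3.03 CPM and no peak.

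Corepressors of the MXD proteins and MNT had peaks of all 3 lists in 4 of 6 windows, with a median of 43.0 CPM. HDAC1, a histone deacetylase, had 121 ± 4.93 CPM and peaks of all 3 lists. SAP30, a subunit of the SIN3 complex, had 30.8 ± 9.55 CPM with peaks in BioRep2 and BioRep3, and SIN3B, its scaffold, had 28.6 ± 2.43 CPM and no peak. Of the other MLX and MAX partners, MLXIP had 58.0 ± 5.24 CPM with peaks in all 3 lists, and MGA, a large MAX-binding repressor, had 19.0 ± 3.65 CPM and none.

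MYC coactivators had peaks of all 3 lists in 5 of 12 windows, with a median of 43.6 CPM, led by EP400, an ATPase of the TIP60 complex, at 95.9 ± 12.2 CPM and RUVBL2, a helicase of the same complex, at 89.0 ± 10.6 CPM. SMARCB1, a SWI/SNF subunit, had 43.8 ± 4.33 CPM with a peak in BioRep3 alone. Factors that bind the MYC promoter had such peaks in 3 of 7 windows, with a median of 55.3 CPM. MAZ, a zinc finger protein of guanine-rich promoters, had 160 ± 12.1 CPM and CNBP, which binds the MYC G-quadruplex element, 63.5 ± 11.004 CPM. SP1 had 68.1 ± 7.55 CPM with peaks in BioRep2 and BioRep3, and FUBP1, which binds far upstream of MYC, had 55.3 ± 11.6 CPM with a peak in BioRep2 alone.

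Textbook MYC targets had peaks of all 3 lists in 4 of 11 windows (36.4%), with a median of 40.1 CPM. ODC1, the first enzyme of polyamine synthesis, had 103 ± 4.05 CPM and CDC25A, a cell cycle phosphatase, 84.6 ± 7.93 CPM. The windows at the nucleolar genes FBL (44.3 ± 5.66 CPM) and NOP56 (40.1 ± 6.39 CPM) had peaks in BioRep2 and BioRep3. Since windows were assigned by position, the one at NOP56 may belong to another transcript of that locus. None of the 4 windows of non-coding loci beside the network genes had peaks of all 3 lists, and their median was 19.3 CPM. Among them PVT1, downstream of MYC, had 26.2 ± 4.69 CPM and MYCNUT, upstream of MYCN, 8.75 ± 1.43 CPM, neither with a peak. These lists hold between 2 and 12 windows each, and no list was tested against the others.

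**Figure D5:**
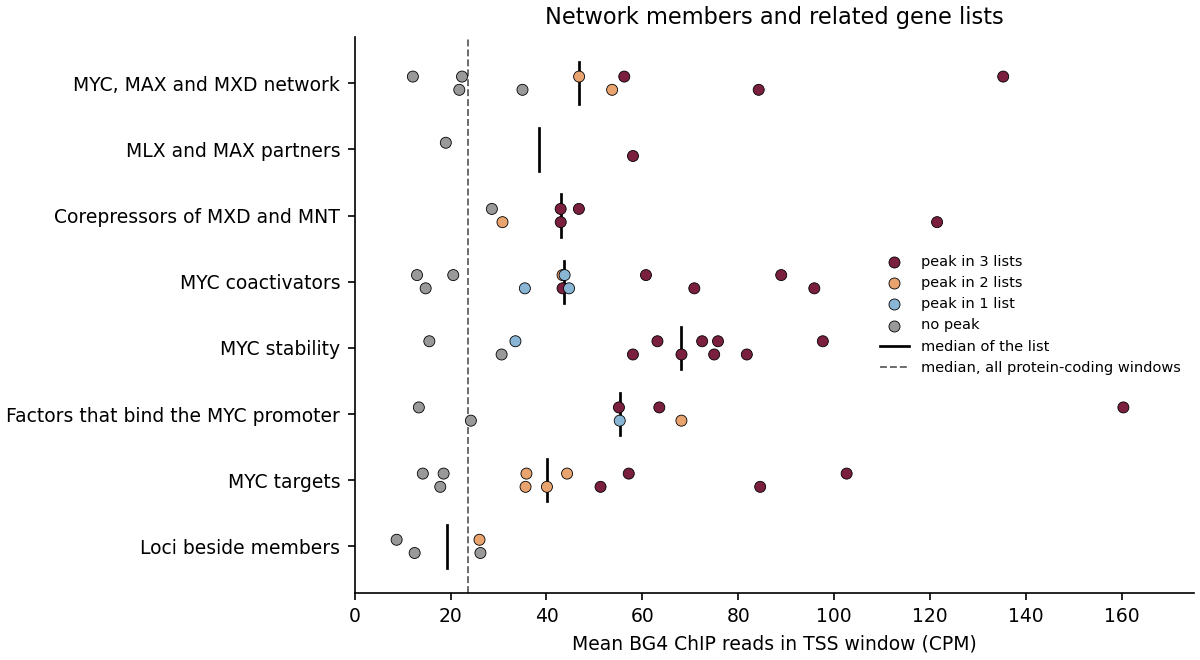
Mean BG4 signal (CPM) of every window in the network and in the 7 related gene lists, with 1 point per gene coloured by the number of lists with a peak in the window, a black bar at each list's median and a dashed line at the median of all protein-coding windows (23.6 CPM). The genes of MYC stability have the highest median and the loci beside the network genes the lowest, and single genes such as MAZ and MXD4 lie far above the rest of their lists.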

How the data were processed

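BG4 chromatin immunoprecipitation was sequenced from HEK293 cells, 3 technical libraries in each of 3 biological replicates, grouped by their titles. The authors deposited raw read counts per window of 400 bp around each transcription start site of GENCODE release 28, 1 file per library, and 1 peak list per biological replicate with coordinates alone, so peak positions are as deposited and carry no score. Per the submitters' processing notes the tools were BWA, cutadapt, MACS2, Picard and bedtools, and the build was hg38. Not given in the sources used here were their versions, the peak threshold, the rule that joined technical libraries and whether marked duplicates were counted; counting without duplicates would cap the densest windows. The deposited counts were not scaled to the inputs, which were not used.

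The windows carry Ensembl identifiers without names, so genes were assigned by strand and distance to RefSeq 5′ ends of the same assembly, and a window can belong to a neighbouring transcript. CPM was scaled to all reads in windows, which is not the full depth of a library, averaged over technical libraries and given as mean ± SD over biological replicates. Peaks touched a window when they overlapped it by 1 bp or more. Intervals are exact (Clopper-Pearson, 95%). Sequences are from RefSeq (GRCh38.p14).

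Counts were compared with edgeR 4.0.16 (R 4.3.3; TMM, filterByExpr, robust quasi-likelihood fit, Benjamini-Hochberg at 0.05 over all windows tested); DESeq2 1.42.0 was an alternative. The fit was tested on simulated data. The other steps used Python 3.11.15 with numpy 2.4.6, pandas 2.3.3 and scipy 1.17.1. Named genes were all 10 network genes, genes with a window within 5 kb of one, and in each list the 2 genes with the highest mean CPM among those with peaks of all 3 lists in the window and the 2 among those without. A few genes named by this rule are not reported here, but the list counts include them. The network genes and the lists were chosen with earlier results of these data known. Alternatives were other size factors, no filter, the technical number as a replicate block, and other overlap, distance, background and motif rules. Each library and each biological replicate was also omitted in turn. The count of peaks within 1 kb of the RefSeq 5′ end and the merging of sites less than 100 bp apart were chosen after seeing the data.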

Additional observations from a re-analysis of the deposited data

How the results depend on the processing

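The order of the network genes rests on few reads at MYC, MYCN and MYCL, where 4 to 27 reads per library set the level. The count of network windows with peaks of all 3 lists was 3, against 23.9% of protein-coding windows. It was 5 with peaks in at least 2 lists, against 34.2%, and 5 with a peak in any list, against 41.4%. Without BioRep1 it was 5, and 9.17% of protein-coding windows had peaks of BioRep2 and BioRep3 only. With windows widened to 1 kb on each side it was 5, with no share of all windows given. It was 6 when peaks within 1 kb of the RefSeq 5′ end were counted over 10 genes, against 29.3% of protein-coding genes. The MXI1 and MLX windows were the ones gained without BioRep1. Genes with the motif numbered 4, but 2 of 9 (22.2%) on the printed strand alone and 1 of 9 (11.1%) from 50 bases before to 50 after the start. The share also fell over all 22198 protein-coding promoters, counted as promoters and not as genes. It was 30.4% with the full rule, 17.9% on the printed strand and 9.51% near the start. With a peak in any list, 9 of 12 MYC coactivators, 5 of 7 factors that bind the MYC promoter and 8 of 11 MYC targets were counted. For loci beside the network it was 1 of 4. Of all protein-coding windows, 41.4% had a peak of any list, against 23.9% with peaks of all 3. Without BioRep1, 8 MYC targets had peaks of both remaining lists, and without BioRep2, 1 locus did. The share of all protein-coding windows under these omissions is not given, so these counts describe the lists alone. No window was called between biological replicates in the design used, and without the filter on low counts 6 were called for BioRep1 over BioRep2, 28 for BioRep1 over BioRep3 and 25 in the test over all 3 replicates; the cause of these shifts was not tested. With the technical number as a replicate block, 1 window was called for BioRep1 over BioRep2 and 1 for BioRep1 over BioRep3. The numbers do not pair the libraries: correlations of deviations ran from -0.0106 to 0.0183 for the same number and from -0.0140 to 0.0183 for other numbers. Leaving out 1 library at a time gave from 0 to 1 called windows for BioRep1 over BioRep2, from 0 to 2 for BioRep1 over BioRep3, 0 for BioRep2 over BioRep3 and from 0 to 1 over all 3 replicates. No network fold change passed the threshold in the design used, and 26 of 378 recomputed ones changed sign, 23 of them with 1 library left out; none of these was among the values with an unadjusted p under 0.05. Of the recomputed fold changes, 366 of 378 moved by less than 1 SE, and 126 of 135 levels and 88 of 99 ratios by less than 1 SD. The ratios depended on the background chosen. With the genome-wide median of peak-free protein-coding windows in place of the local surroundings, the ratio fell at every gene with a window. The fall was less than 1 SD at MXI1 and MLX alone. The ratio went from 10.26 to 7.499 at MAX and from 2.67 to 1.94 at MYC. With the 99th percentile of peak-free windows in place of the 95th, 5 network windows were above it in place of 6, without MXD3. The share of all protein-coding windows above the 99th percentile is not given. Merging sites less than 100 bp apart gave 23 sites in place of 24.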
